A study of Mus musculus with 33 samples.

Results

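Rod priming at day 0 was followed by comparing 3 libraries of mouse retinal progenitor cells treated with taurine and retinoic acid with 3 libraries of untreated cells. The 6 libraries were chosen by their titles, from 33 libraries in 11 groups of 3. Every cell came from retina of C57BL/6J embryos at embryonic day 14. Untreated cells received no factor, and rod primed cells received taurine together with retinoic acid, so the 2 agents cannot be told apart. The other day 0 group, 3 libraries of cone primed cells treated with COCO protein, which binds and blocks BMP, TGF-beta and Wnt ligands, is given beside them where it helps. The remaining 24 libraries, of induced cells at days 5 to 35, entered only the gene filter, the scaling and the estimate of spread between replicates. How long the factors were present before day 0 is not stated in the labels, and neither is whether replicates came from separate litters or cultures. The p-values therefore measure only the spread between libraries within the 11 groups, which may be technical and includes that of the induced cells.

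Retinoic acid is made from vitamin A (retinol) in steps catalysed by retinol and retinal dehydrogenases, and is cleared by the Cyp26 cytochromes. It acts through retinoic acid receptors (RARs), which pair with retinoid X receptors on DNA and switch on target genes that include parts of the pathway itself. In the developing eye its synthesis is patterned along the dorsal to ventral axis, and added retinoic acid or taurine has long been used to favour rod photoreceptors in retinal cultures. Taurine is a free amino acid that can open glycine and GABA receptor channels.

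The promoters of Cyp26a1, which encodes a retinoic acid-clearing enzyme, and Rarb, which encodes RAR beta, are shown first. Both genes rose in rod primed cells and held the repeat that RARs bind when its units lie 5 letters apart. The search covered the retinoid genes, Hox genes and most changed genes whose promoter was in the table. No other gene counted held the repeat, but matches on a single chromosome, not that of either gene, were left out of the count. Each line gives the 250 bases before the RefSeq start site on GRCm38.p6, 5′ to 3′ on the gene's strand, with the matching letters in capitals. The Cyp26a1 stretch is chr19:37697558-37697807 on the plus strand, and the Rarb stretch is chr14:16575477-16575726 on the minus strand.
Cyp26a1: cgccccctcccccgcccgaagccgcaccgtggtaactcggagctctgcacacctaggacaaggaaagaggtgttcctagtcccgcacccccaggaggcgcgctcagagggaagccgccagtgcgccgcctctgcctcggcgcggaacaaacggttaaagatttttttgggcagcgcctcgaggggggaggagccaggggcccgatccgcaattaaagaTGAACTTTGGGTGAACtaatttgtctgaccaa
Rarb: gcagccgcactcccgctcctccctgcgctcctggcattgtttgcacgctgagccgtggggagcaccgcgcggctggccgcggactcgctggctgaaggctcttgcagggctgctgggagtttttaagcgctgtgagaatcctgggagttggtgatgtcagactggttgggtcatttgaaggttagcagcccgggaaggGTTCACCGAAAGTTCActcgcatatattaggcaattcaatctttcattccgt

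The motif searched was GGTCA or GTTCA, then 6 letters of any kind, then GGTCA or GTTCA, on both strands, which leaves the first letter of the second unit free. In Cyp26a1 the match TGAACTTTGGGTGAAC lay on the opposite strand, 32 to 17 bases before the start site. In Rarb the match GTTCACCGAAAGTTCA lay on the gene's strand, 52 to 37 bases before it. Such a match was present in 81 of 32851 promoter windows of 300 bases (0.247%). Of 131 genes searched by name, 84 had a window and at least these 2 held the match. Matches on the left-out chromosome were not counted. With the units 2 letters apart, 131 of all windows (0.399%) matched. Of the 84 genes 0 did so outside that chromosome, where matches were again not counted. The 84 genes and the shares of all windows still include that chromosome. Both counts are therefore minimum counts and cannot be set against those shares. Across every window, 73 genes had the wider spaced match, 24 of them were tested here, and 7 were called higher and 1 lower (6.71% and 3.56% of all genes tested), with a median log2 fold change of 0.06. The other called genes among them were Gm14133, Syndig1, Blvrb, Trim2 and Spg21 (higher) and Kif1a (lower), which are named here because of their promoter. A match is a string of letters and not a measured binding site.

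Total counts in genes ran from 7511837 to 13664387 in the 6 libraries, and 20432 to 22384 genes had at least 1 count. Ribosomal RNA genes took 22.1% to 27.5% of gene counts in rod primed and 16.0% to 26.0% in untreated libraries. On the first principal component of the 6 libraries, with 58.6% of the variance, untreated libraries lay between -42.7 and -28.2 and rod primed libraries between 32.6 and 43.0. The second component (14.4%) ordered the replicate numbers alike in both groups. Genes of the retinal progenitor list summed to 2159 to 2501 CPM (counts relative to the scaled library total) in untreated cells. Genes of retinal ganglion cells summed to 1680.0 to 2288 CPM there, so the untreated material held transcripts of post-mitotic neurons beside those of progenitors. In bulk RNA, fewer cells of a type and less RNA per cell cannot be told apart.

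Calls rest on edgeR's quasi-likelihood test, with an adjusted p (Benjamini-Hochberg) under 0.05 as the threshold. Of 18150 genes tested, 1864 (10.3%) passed, of which 1217 (6.71% of those tested) rose and 647 (3.56%) fell on rod priming. The called counts of every gene list below are to be read beside these shares. Of the called genes, 875 changed by 2-fold or more, 607 upwards and 268 downwards. The 3 rod primed and 3 untreated values did not overlap for 6106 genes (33.6%), and for 1807 of the 1864 called genes. The number called fell to 829 without rod primed replicate 3, to 985 without untreated replicate 2 and to 1225 without untreated replicate 3. A fit of the 6 libraries alone tested 14620 genes and called 1537 higher (10.5%) and 1375 lower (9.4%), so that the share of called genes that were higher went from 65.3% to 52.8%. Among protein-coding genes the median genomic span was 28.1 kb for those called higher, 66.7 kb for those called lower and 25.2 kb for all tested. Cone primed cells had 0 called genes against the same untreated libraries in edgeR, DESeq2 and limma voom. In edgeR 200 of the 18150 genes had an unadjusted p under 0.05, against 4408 for rod primed cells. The cone primed share is below the 0.05 that unchanged genes would give, so 0 calls are not read as no effect.

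**Figure D1:**
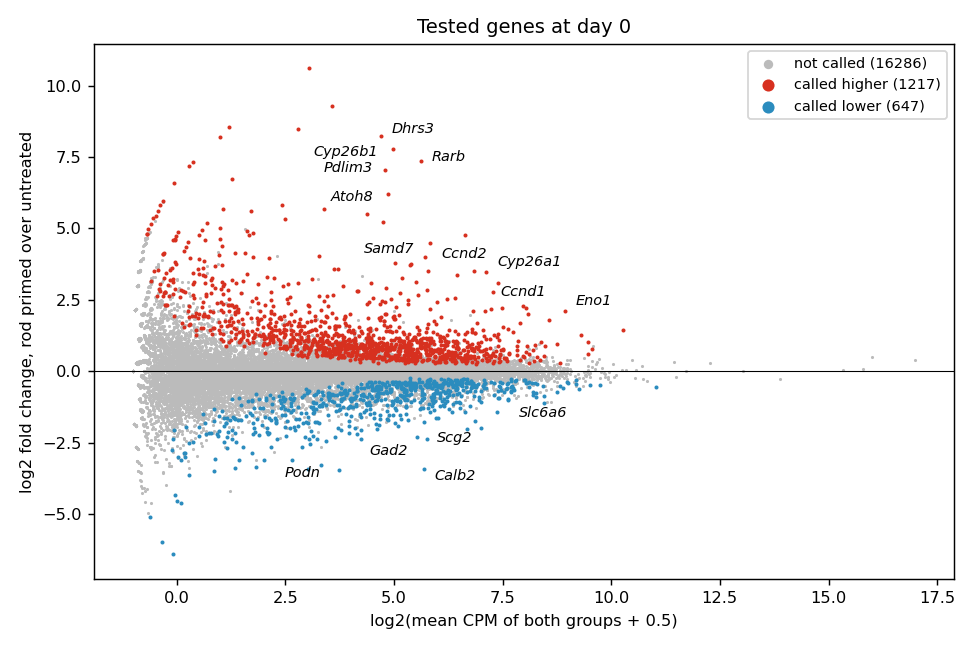
Each point is 1 of 18150 tested genes, with log2(mean CPM of both groups + 0.5) on the horizontal axis and the log2 fold change of rod primed over untreated cells on the vertical axis. Called genes are coloured, and Dhrs3, Cyp26b1 and Rarb stand out upwards at moderate level, while Calb2 and Podn are among the lowest.

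Genes that clear or store retinoids were among the largest rises. Of the 18 genes listed for retinoic acid synthesis and breakdown 16 were tested, 5 were called higher and 0 lower, against 6.71% and 3.56% of all genes. Dhrs3, which encodes a reductase that turns retinal back into retinol (ENSMUSG00000066026, chromosome 4, 144892827 to 144928209), had 0.128, 0.200 and 0.136 CPM in untreated and 53.6, 39.9 and 59.3 CPM in rod primed replicates 1 to 3. All 3 rod primed libraries lay far above all 3 untreated ones, and the log2 fold change was 8.23 ± 0.52 (standard error, adjusted p 1.93e-11). Cyp26a1 had 16.1, 14.6 and 37.3 CPM in untreated and 229.6, 251 and 285 CPM in rod primed libraries, and its log2 fold change was 3.48 ± 0.39. Its untreated replicate 3 was the highest of that group and still far below every rod primed library. Cyp26b1, a second clearing enzyme of the same family, went from 0.512, 0.133 and 0.272 CPM to 59.3, 41.8 and 83.2 CPM (log2 fold change 7.79 ± 0.91, adjusted p 1.53e-06). Unlike Cyp26a1, it stayed under 1 CPM in every untreated library.

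Lrat, which encodes the enzyme that esterifies retinol for storage, had 1 count over the 3 untreated libraries and 3.26, 2.12 and 6.11 CPM in rod primed cells. The ratio was 149, with a 95% counting interval of 26.2 to 5943, and edgeR gave an adjusted p of 0.000773. Dhrs4, another short-chain reductase of retinoids, rose by less, from 3.07, 3.80 and 4.62 CPM to 6.24, 6.35 and 7.54 CPM (log2 fold change 0.79 ± 0.22). Its call was lost without rod primed replicate 3 (adjusted p 0.110), untreated replicate 1 (0.0571) or untreated replicate 2 (0.0536). The enzymes that make retinoic acid were not called. Rdh10, which oxidises retinol, had 29.4, 21.7 and 17.7 CPM in untreated and 30.8, 27.6 and 38.6 CPM in rod primed libraries, and the groups overlapped. Aldh1a1, the dorsal retinal dehydrogenase, had 18.4, 11.5 and 8.69 CPM and 35.8, 11.1 and 27.3 CPM, again with overlap. Aldh1a3, the ventral retinal dehydrogenase, had 5.24, 3.67 and 4.48 CPM and 0.271, 2.02 and 2.51 CPM, with every rod primed value below every untreated value but a log2 fold change of -1.41 ± 0.61 that missed the threshold (adjusted p 0.150).

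**Figure D2:**
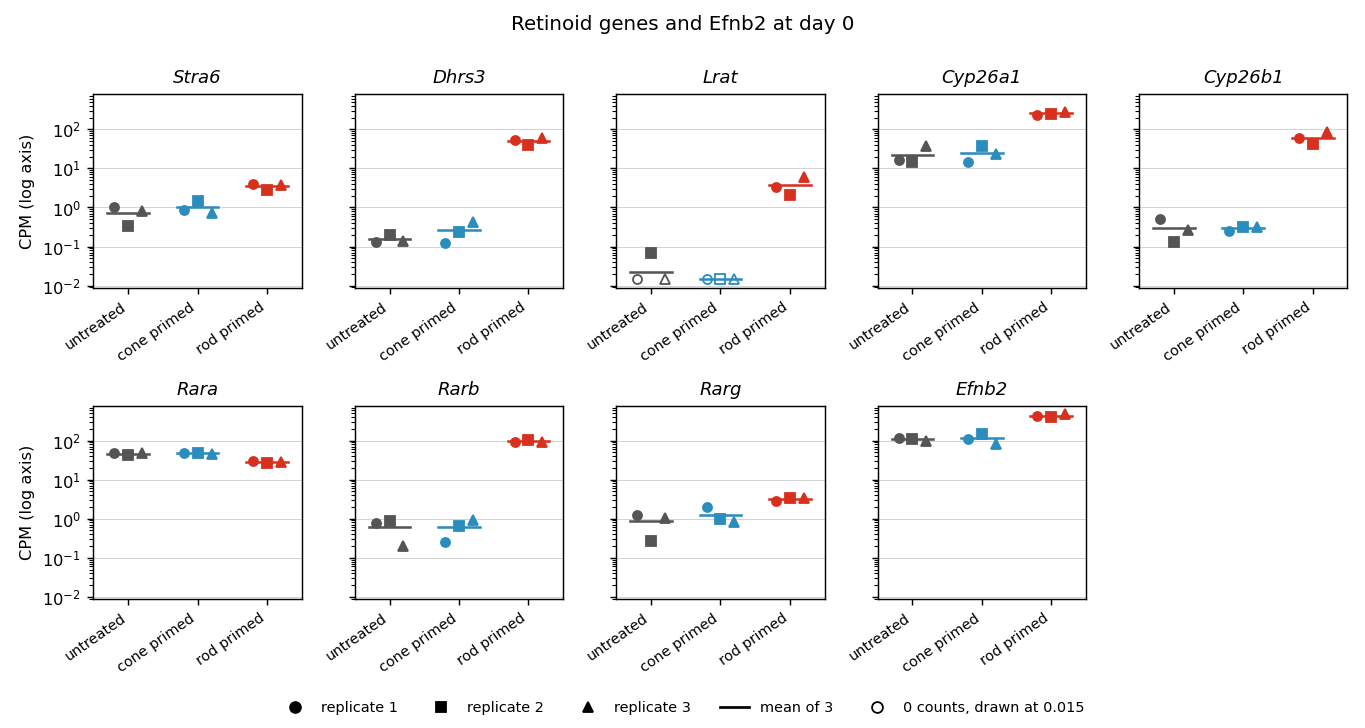
CPM on a log axis for 8 retinoid genes and Efnb2 in the 3 untreated, 3 cone primed and 3 rod primed libraries, with 1 symbol per replicate and a line at the mean of 3 (open symbols are 0 counts). Rod primed libraries sit apart from the other groups for each gene, above them for all but Rara, and cone primed libraries sit among or beside the untreated ones.

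Among 20 tested genes of retinoid transport, receptors and cofactors, 8 were called higher and 1 lower, with a median log2 fold change of 0.11 against 0 over all genes tested. Stra6, the membrane receptor that takes up retinol, went from 1.02, 0.333 and 0.815 CPM to 3.93, 2.72 and 3.68 CPM. Ttr, a carrier of thyroid hormone in blood, had 0, 0.400 and 0 CPM and 1.90, 0.504 and 2.78 CPM, and its call was lost without rod primed replicate 3 (adjusted p 0.0694). The proteins that carry retinoic acid itself inside cells were not called: Crabp1 had 59.1, 66.6 and 26.8 CPM and 38.1, 29.2 and 28.6 CPM, and Crabp2 had 0.384, 1.53 and 2.38 CPM and 2.17, 1.31 and 5.30 CPM, with overlap in both.

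The 3 RAR genes went different ways. Rarb had 0.768, 0.867 and 0.204 CPM in untreated and 93.7, 105 and 93.6 CPM in rod primed libraries, a log2 fold change of 7.34 ± 0.31 (adjusted p 6.55e-15). Its 3 rod primed libraries lay close together and far above the highest untreated one. Rarg, encoding RAR gamma, rose from 1.28, 0.267 and 1.02 CPM to 2.85, 3.43 and 3.41 CPM (log2 fold change 2.02 ± 0.36). Rara, encoding RAR alpha, had 47.1, 42.5 and 48.8 CPM in untreated and 29.8, 27.0 and 27.8 CPM in rod primed libraries, a log2 fold change of -0.71 ± 0.22. The Rara values did not overlap, but its adjusted p of 0.0366 went to between 0.0733 and 0.144 when any 1 of the 6 libraries was left out. Of the retinoid X receptors, Rxrg had 10.6, 16.8 and 17.7 CPM and 11.3, 11.0 and 6.64 CPM and was not called. Of the cofactors, Nrip1 (log2 fold change 0.45 ± 0.11) and Ncoa3 (0.49 ± 0.09) rose by less than 1.5-fold.

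Cone primed cells, given side by side because they share the untreated controls, had 0.126, 0.243 and 0.419 CPM of Dhrs3, 14.2, 36.5 and 23.6 CPM of Cyp26a1 and 0.252, 0.647 and 0.943 CPM of Rarb. None of these 3 genes was called between cone primed and untreated cells.

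Other genes known to respond to retinoic acid in embryos moved less as a set. Of 30 listed genes 22 were tested, 3 were called higher and 1 lower, with a median log2 fold change of -0.08. The fit of the 6 libraries alone called 4 higher and 5 lower of 18. Nedd9, a scaffold protein of cell adhesion, rose from 25.2, 26.2 and 29.2 CPM to 57.2, 59.6 and 80.8 CPM (log2 fold change 1.29 ± 0.22). Nr2f1, an orphan nuclear receptor, had a log2 fold change of 0.77 ± 0.20 and was not called without rod primed replicate 3 (adjusted p 0.0942). Zfp703, a transcriptional repressor, had 0.99 ± 0.28, and was not called without rod primed replicate 2 (0.0751) or untreated replicate 2 (0.0991) or 3 (0.0841). Tgm2, a transglutaminase, fell from 8.19, 6.40 and 5.98 CPM to 3.93, 1.61 and 2.87 CPM, and this call was lost without rod primed replicate 2 (0.0980) or 3 (0.0622) or untreated replicate 1 (0.0534). Hox genes, the axial patterning factors that retinoic acid induces in hindbrain and trunk, were near the detection limit. Of 37 Hox genes, 24 had 0 counts in all 6 libraries and 2 were tested. Hoxb5 had 0 counts in every untreated library and 12, 18 and 15 counts in rod primed ones, at least 19.8-fold higher against a floor of 3 counts over the group. Hoxb8 had 0 counts and then 23, 32 and 29 counts, at least 37.0-fold higher. Both had 0 counts in all 3 cone primed libraries. Genes this low pass the filter only through groups where they are high, so the calls are not read as support. Their adjusted p of 0.0482 and 0.0470 rose to between 0.0804 and 0.135 without any 1 library.

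Of 29 tested genes that pattern the dorsal to ventral and nasal to temporal axes of the retina, 7 were called higher and 1 lower. The shares over all genes tested were 6.71% and 3.56%. Of the dorsal genes, Efnb2, Efnb1 and Tbx2 were called higher. Tbx3 (log2 fold change -0.40 ± 0.23), Tbx5 (-0.06 ± 1.07) and Bmp4 (1.48 ± 0.89), dorsal genes named after their values were seen, were not called (adjusted p 0.296, 0.989 and 0.321). Efnb2, a dorsal ephrin, had 115, 110.1 and 96.6 CPM in untreated and 419, 406 and 469 CPM in rod primed libraries, with no overlap (log2 fold change 2.01 ± 0.25, adjusted p 3.14e-06). Tbx2, a dorsal T-box factor, went from 69.3, 55.3 and 49.6 CPM to 160.3, 169 and 162 CPM, a 2.82-fold rise (adjusted p 0.000288). Bmp2, a secreted ligand, went from 0.512, 1.27 and 1.43 CPM to 5.70, 6.95 and 14.1 CPM (log2 fold change 2.97 ± 0.41). Efnb1 (0.86 ± 0.21), the ventral ephrin receptor Ephb2 (0.88 ± 0.21), Epha7 (1.06 ± 0.25) and the forkhead factor Foxd2 (2.83 ± 0.68) rose too. The higher genes thus included a dorsal ligand and a ventral receptor. The ventral genes Vax1 (log2 fold change -2.94), Vax2 (0.61) and Ephb3 (-0.08), also named after their values were seen, were not called. Their adjusted p by edgeR was 0.0590, 0.420 and 0.835. Epha4 fell, with a log2 fold change of -0.64 ± 0.17, a call lost without rod primed replicate 1 (adjusted p by edgeR 0.0926) or 2 (0.0521) or untreated replicate 3 (0.0657). The count of 7 higher genes was the same without each of the 6 libraries. The fit of the 6 libraries alone called 10 higher and 4 lower of 25.

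Cell cycle genes were higher in rod primed cells. All 46 mitosis genes tested had 3 rod primed values above 3 untreated values, as did 3188 of all 18150 genes tested. Log2 fold changes of the 46 lay between 0.70 and 1.33 with a median of 0.92, and 35 were called higher against 6.71% of all genes. Of 44 DNA replication genes 28 were called higher and 0 lower, with a median of 0.77. These counts depended on single libraries: mitosis genes called fell to 6 without rod primed replicate 3 and to 4 without untreated replicate 2, and DNA replication genes to 5 and 10. The medians moved little, between 0.82 and 1.09 for mitosis and between 0.64 and 0.91 for DNA replication over all alternatives. The fit of the 6 libraries alone called 46 of 46 and 37 of 44.

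Rrm2, a subunit of ribonucleotide reductase, had 29.4, 28.3 and 40.4 CPM in untreated and 72.8, 85.6 and 99.4 CPM in rod primed libraries (log2 fold change 1.39 ± 0.31). Pcna, the sliding clamp of DNA polymerase, had 46.3, 46.2 and 53.9 CPM and 86.1, 85.0 and 105 CPM (0.92 ± 0.18). Mad2l1, of the spindle checkpoint, had 16.9, 14.9 and 17.9 CPM and 27.7, 32.3 and 33.8 CPM (0.92 ± 0.19), and Smc2, of condensin, had a log2 fold change of 1.04 ± 0.23. In each of these genes every rod primed library was above every untreated one.

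Genes that govern entry into the cycle moved less as a list, but a few of them moved more. Of 24 G1 control genes 8 were called higher and 0 lower, against 6.71% and 3.56% of all genes. The median was 0.39, and 5 were called higher without rod primed replicate 3 or untreated replicate 2. Ccnd2, a D-type cyclin, had 6.27, 2.20 and 6.45 CPM in untreated and 75.4, 86.6 and 163 CPM in rod primed libraries, and a log2 fold change of 4.48 ± 0.39 (adjusted p 1.30e-08). Ccnd1, the main D-type cyclin of retinal progenitors (ENSMUSG00000070348, chromosome 7, 144929931 to 144939925), had 114, 81.0 and 85.9 CPM and 416, 354 and 528 CPM (2.21 ± 0.24). Rod primed replicate 3 was the highest library for both cyclins. E2f1, which drives S phase genes, went from 19.4, 15.3 and 18.1 CPM to 45.4, 44.0 and 51.7 CPM (1.42 ± 0.27). Inhibitors of cyclin-dependent kinases rose alongside. Cdkn1c (p57) had 23.8, 21.3 and 19.8 CPM and 77.2, 79.5 and 222 CPM, and Cdkn2c (p18) had 9.72, 7.27 and 7.54 CPM and 20.2, 23.9 and 21.1 CPM, with log2 fold changes of 2.55 ± 0.34 and 1.42 ± 0.28. Cdkn1c was highest by a wide margin in rod primed replicate 3. Cdkn1b (p27) had a log2 fold change of 0.53 ± 0.14 and was not called without rod primed replicate 1 (adjusted p 0.0932).

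Of 29 tested progenitor genes 13 were called higher and 2 lower, against 6.71% and 3.56% of all genes, with a median of 0.68. After Ccnd1, described above, the largest called rises were in Sfrp2, a secreted Wnt antagonist, with 86.3, 58.2 and 47.7 CPM in untreated and 296, 274 and 316 CPM in rod primed libraries, and in Nfib, a nuclear factor I gene of late progenitors, with 61.1, 52.4 and 48.8 CPM and 283, 218 and 233 CPM. Their log2 fold changes were 2.21 ± 0.34 and 2.18 ± 0.20. Nfix, of the same family, had 16.1, 14.1 and 9.30 CPM and 54.1, 49.3 and 44.6 CPM (1.92 ± 0.19). Dkk3, a secreted protein of progenitors and glia, had 188, 160.3 and 164 CPM and 494, 509.6 and 770.0 CPM (1.79 ± 0.18). Lhx2, a homeobox factor of progenitors, rose by 1.08 ± 0.19 on the log2 scale and Zic5, a zinc finger factor, by 1.12 ± 0.19. Pax6, which marks progenitors and also ganglion and amacrine cells and is named after its values were seen, fell from 541, 578 and 575 CPM to 341, 368 and 434 CPM (log2 fold change -0.57 ± 0.14). It was not called without rod primed replicate 1 (adjusted p 0.0597) or untreated replicate 2 (0.0615). Without each library in turn 0 or 1 progenitor gene was called lower. The number called higher was 9 without rod primed replicate 3 and also without untreated replicate 2, and at least 11 without each of the other libraries.

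Genes of Muller glia, the glial cells that late progenitors give rise to and resemble, were higher as well. Of 21 tested, 12 were called higher and 0 lower, against 6.71% and 3.56% of all genes, with a median of 1.24. Without 1 library 8 to 11 were called, the lowest being without untreated replicate 3. Cp, the copper oxidase ceruloplasmin, had 65.6, 41.2 and 47.5 CPM in untreated and 207, 221 and 239 CPM in rod primed libraries (log2 fold change 2.12 ± 0.22). Slc1a3, the glial glutamate transporter, had 96.8, 59.2 and 56.5 CPM and 176, 187 and 216 CPM (1.45 ± 0.21). Id2, an inhibitor of bHLH factors, had 6.65, 5.80 and 7.61 CPM and 29.8, 23.8 and 47.9 CPM (2.34 ± 0.28). Rlbp1, which binds retinal in glia and pigment epithelium, had 17.5, 14.2 and 10.6 CPM and 78.1, 39.3 and 32.5 CPM (1.83 ± 0.36). Vim, the intermediate filament shared by progenitors and glia, went from 404, 365 and 345 CPM to 763, 913 and 1019 CPM (1.28 ± 0.26). No untreated library reached the lowest rod primed library in any of these 5 genes. Kcnj10, the glial potassium channel, rose from 1.15, 1.20 and 1.15 CPM to 6.37, 3.63 and 3.14 CPM, and was not called by limma voom (adjusted p 0.0647). Markers of astrocytes and oligodendrocytes gave 1 called gene of 10, Pax2, which also marks the optic stalk, with 0.640, 0.534 and 1.15 CPM and 5.02, 6.25 and 11.6 CPM.

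Notch pathway genes split. Of 26 tested 3 were called higher and 4 lower, against 6.71% and 3.56% of all genes, with a median of 0.02. Hes1, a repressor that keeps progenitors undifferentiated, rose from 11.4, 8.40 and 7.27 CPM to 32.7, 24.9 and 39.1 CPM (log2 fold change 1.86 ± 0.22). Hes5, a repressor of the same family, fell from 65.5, 29.9 and 43.5 CPM to 16.5, 12.4 and 18.9 CPM (-1.53 ± 0.33). The 2 Deltex genes, which modulate Notch, also parted: Dtx4 rose from 212, 214 and 225 CPM to 409.7, 423 and 506 CPM and Dtx1 fell from 94.7, 77.7 and 84.4 CPM to 49.6, 44.8 and 49.3 CPM. The groups did not overlap for any of the 4, and each call held without every single library. Notch3 rose (1.25 ± 0.32) but was not called without rod primed replicate 3 (adjusted p 0.128) or untreated replicate 2 (0.0794), and Hey1 (-0.94 ± 0.27) and Numbl (-0.49 ± 0.13) were the other lower genes (adjusted p up to 0.136 and 0.121 without 1 library). Without rod primed replicate 3, 2 genes were called in each direction, 2 were lower without untreated replicate 1 and 2 were higher without untreated replicate 2. The fit of the 6 libraries alone called 5 higher and 6 lower of 25.

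**Figure D3:**
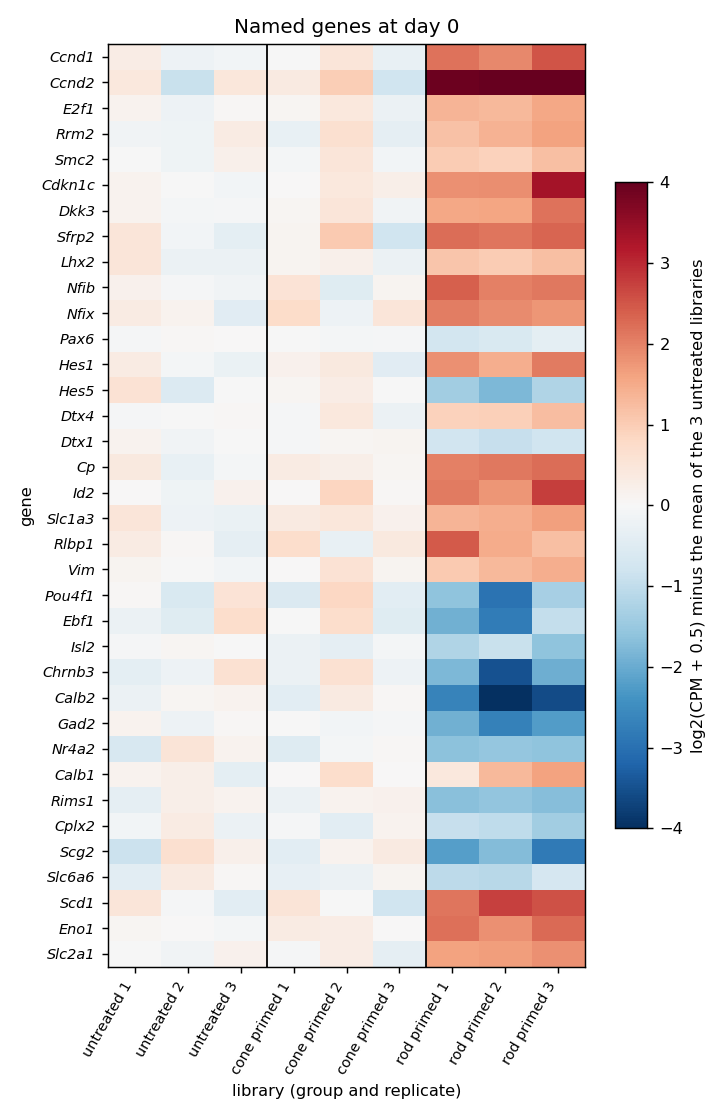
Heat map of 36 named genes in the 9 day 0 libraries, coloured by log2(CPM + 0.5) minus the mean of the 3 untreated libraries, from -4 (blue) to 4 (red). The 3 rod primed columns differ from the 6 others, red for cyclins, progenitor and glial genes and blue for neuron and synapse genes.

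Genes of early-born neurons were lower. Of 36 retinal ganglion cell genes tested 6 were called lower and 0 higher against 3.56% and 6.71% of all genes, 3 had a log2 fold change above 0 and the median was -0.94. Their summed level was 1680.0 to 2288 CPM in untreated and 964 to 1395 CPM in rod primed libraries. Pou4f1 (Brn3a), a factor of ganglion cells, had 52.1, 33.1 and 74.2 CPM in untreated and 16.3, 6.15 and 19.8 CPM in rod primed libraries (log2 fold change -1.92 ± 0.48). Ebf1, a factor of early neurons, had 29.3, 24.1 and 56.5 CPM and 8.68, 4.53 and 17.2 CPM (-1.84 ± 0.41). Chrnb3, a nicotinic receptor subunit, had 9.72, 11.1 and 19.8 CPM and 3.39, 0.705 and 2.96 CPM (-2.55 ± 0.66). In all 3 genes rod primed replicate 2 was the lowest library and the groups did not overlap. Rbpms2, an RNA-binding protein, had -1.21 ± 0.31, Isl2, a LIM factor of ganglion cell subtypes, -1.26 ± 0.39, and Chrna6, the receptor partner of Chrnb3, -2.24 ± 0.67. The list's calls were fragile: 0 genes were called without untreated replicate 3, 2 without rod primed replicate 2, 3 without rod primed replicate 1, 4 without untreated replicate 1 or 2 and 5 without rod primed replicate 3. Pou4f1 and Chrnb3 were lost without rod primed replicate 2 (adjusted p 0.0649 and 0.0753) or untreated replicate 3 (0.0769 and 0.0771), Ebf1 without untreated replicate 3 (0.0559), and Rbpms2 without rod primed replicate 1 (0.0757) or untreated replicate 3 (0.106). Isl2 and Chrna6 were lost without any 1 of the 6 libraries (adjusted p 0.0555 to 0.196). The fit of the 6 libraries alone called 15 of 35, all lower.

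Amacrine and horizontal cell genes gave 5 lower and 1 higher of 31, with a median of -0.52. Calb2 (calretinin), of amacrine and ganglion cells (ENSMUSG00000003657, chromosome 8), had 79.1, 98.4 and 103 CPM in untreated and 14.1, 5.14 and 7.27 CPM in rod primed libraries, a log2 fold change of -3.43 ± 0.57 (adjusted p 0.000221). Gad2, which makes the transmitter GABA, had 83.1, 65.7 and 77.8 CPM and 19.4, 11.1 and 15.4 CPM (-2.31 ± 0.47). Nr4a2, an amacrine cell factor, had 13.8, 31.6 and 24.2 CPM and 6.65, 7.25 and 6.91 CPM (-1.75 ± 0.26). Each of these 3 was lower in every rod primed library, and each stayed called without any 1 library. Calb1 (calbindin), of horizontal and amacrine cells, went the other way, from 38.5, 41.0 and 26.6 CPM to 46.7, 86.1 and 106 CPM (1.18 ± 0.30), and was not called without rod primed replicate 3 (adjusted p 0.102) or untreated replicate 3 (0.0630). The other lower genes were Npy (-3.43 ± 0.81, 0.0616 without rod primed replicate 3) and Ebf4 (-0.75 ± 0.23, up to 0.221 without 1 library). The count of lower genes was 3 without rod primed replicate 3, and 14 of 30 in the fit of the 6 libraries alone. Bipolar cell genes, of a late-born neuron, had 0 of 15 called by edgeR, and 2 of 9 were lower in the fit of the 6 libraries alone. In the main fit 2 of the 15 had an unadjusted p under 0.05, against 4408 of all 18150 genes tested.

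Synapse and vesicle genes were lower with them: 8 of 32 were called lower and 0 higher, with a median of -0.72. Rims1, a scaffold of vesicle release, had 46.2, 70.0 and 66.4 CPM in untreated and 18.4, 19.7 and 17.9 CPM in rod primed libraries (log2 fold change -1.71 ± 0.40). Cplx2 (complexin 2) had 435, 595 and 402 CPM and 248, 234 and 178 CPM (-1.12 ± 0.29). Rod primed libraries were below untreated ones in both. Cplx2 was not called without rod primed replicate 3 (adjusted p 0.0847) or untreated replicate 2 (0.0992). The count of lower genes was 3 without rod primed replicate 3, untreated replicate 2 or untreated replicate 3, and 5 without rod primed replicate 1 or 2, while the fit of the 6 libraries alone called 20 lower and 2 higher of 31. Of 19 tested neuropeptide genes 2 were called, both lower, against 2 higher and 6 lower of 13 in the fit of the 6 libraries alone. Scg2 (secretogranin II) fell from 45.3, 128 and 94.1 CPM to 17.4, 24.3 and 11.1 CPM (-2.35 ± 0.34). Gal (galanin) had -1.68 ± 0.47, and was not called without rod primed replicate 1 (0.0936) or 2 (0.114) or untreated replicate 2 (0.0627) or 3 (0.0795).

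Photoreceptor genes did not move as a block. Among 23 factors that set photoreceptor fate, 2 were called higher and 1 lower, with a median of 0.09. The fit of the 6 libraries alone called 2 higher and 6 lower of 18. Otx2 and Crx, the homeobox factors at the head of the photoreceptor programme, had 264, 261 and 192 CPM and 463, 579 and 409 CPM in untreated and 371, 249.6 and 169 CPM and 530.3, 495 and 301 CPM in rod primed libraries. The groups overlapped for both, with log2 fold changes of 0.14 ± 0.44 and -0.13 ± 0.59 that are smaller than their standard errors. Prdm1 (Blimp1), which holds cells in the photoreceptor path, had 287, 321 and 266 CPM and 183, 163 and 118 CPM, with no overlap. Its log2 fold change of -0.92 ± 0.51 missed the threshold (adjusted p 0.282), but it was called in the fit of the 6 libraries alone (adjusted p 0.00375). Rora fell from 109.6, 130.5 and 101 CPM to 79.8, 70.5 and 51.4 CPM, a call lost without rod primed replicate 2 (0.0533) or 3 (0.169) or untreated replicate 1 (0.0568) or 2 (0.148). Otx1, called higher with overlapping groups at 0.895, 0.0667 and 0.204 CPM and 1.09, 0.806 and 4.40 CPM, was lost without rod primed replicate 3 (0.442) or untreated replicate 2 (0.178) or 3 (0.148).

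The rod factors themselves varied widely between replicates. Nrl, which sets rod over cone fate, had 29.9, 15.5 and 6.38 CPM in untreated and 97.8, 51.4 and 17.8 CPM in rod primed libraries. Nr2e3, its nuclear receptor target, had 11.5, 0.400 and 0.0679 CPM and 80.6, 14.8 and 6.02 CPM. In both genes replicate 1 was the highest and replicate 3 the lowest library of each group. The groups overlapped, and the log2 fold changes of 1.71 ± 1.02 and 3.35 ± 1.51 were not called (adjusted p by edgeR 0.316 and 0.170). Each rod primed library was above the untreated library of the same number, and this fit did not pair the libraries. A fit of the 6 libraries with the replicate number as a block called 6 photoreceptor fate factors higher and 7 lower of 18. Over all 14620 genes that fit called 1842 higher and 1754 lower, more than the main fit. Cone primed libraries had 35.9, 6.14 and 29.9 CPM of Nrl and 25.5, 0.243 and 10.2 CPM of Nr2e3, a similar spread. Samd7, a Polycomb-associated protein of rods, was the fate gene that rose clearly. It had 9.47, 7.47 and 2.04 CPM in untreated and 109, 121 and 65.8 CPM in rod primed libraries, a log2 fold change of 4.01 ± 0.92 (adjusted p 0.00531), with no overlap and its lowest value again in replicate 3 of each group.

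Of 17 rod genes of the light response, 0 were called in either direction by edgeR. At an unadjusted p under 0.05 there were 3, against 4408 of all 18150 genes tested. Still, 15 of the 17 had a log2 fold change above 0, and the median was 1.80 against 0 over all genes tested. DESeq2 and limma voom each called 2 higher, and the fit of the 6 libraries alone 2 of 13. With the replicate number as a block, the fit of the 6 libraries called 8 of the 13 higher, against 1842 of all 14620 genes. Sag (rod arrestin) had 74.6, 35.8 and 20.9 CPM in untreated and 259, 179 and 70.8 CPM in rod primed libraries, overlapping only between untreated replicate 1 and rod primed replicate 3 (log2 fold change 1.97 ± 1.08, adjusted p 0.273). Cnga1, the rod channel subunit, had 0.384, 0.133 and 0 CPM and 8.00, 5.34 and 0.898 CPM. For both genes too replicate 1 was the highest of the rod primed libraries and replicate 3 the lowest. Of 22 tested genes shared by rods and cones 1 was called higher and 0 lower, and 0 were called without rod primed replicate 1 or any 1 untreated library.

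Most cone genes had the opposite sign. Of 12 tested 2 were called lower and 0 higher, with a median of -0.82, and the fit of the 6 libraries alone called 6 lower. A log2 fold change above 0 was seen for 3 of the 12. These included Kcne2 (2.18, adjusted p by edgeR 0.0629) and the cone opsin Opn1sw (1.74, 0.264). Cnga3, the cone channel subunit, fell from 5.37, 3.27 and 3.80 CPM to 0.814, 0.605 and 0.539 CPM (log2 fold change -2.66 ± 0.69), a call lost without rod primed replicate 2 (adjusted p 0.0521) or 3 (0.0779). Gnat2, the cone transducin, had 33.4, 35.2 and 22.7 CPM and 15.2, 14.4 and 11.0 CPM with no overlap, and a log2 fold change of -1.17 ± 0.50 that was not called (adjusted p 0.141) except in some alternatives, such as the fit of the 6 libraries alone (0.00359). Ccdc136, a coiled-coil protein, had overlapping values of 705, 491 and 426 CPM and 456, 299 and 221 CPM. Its adjusted p of 0.0497 rose to 0.0930 or more without untreated replicate 1 or 2 or rod primed replicate 2 or 3. The list had 0 called genes without rod primed replicate 2 or 3, and 1 lower gene without untreated replicate 1 or 2. Without untreated replicate 1, 1 cone gene was also called higher.

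**Figure D4:**
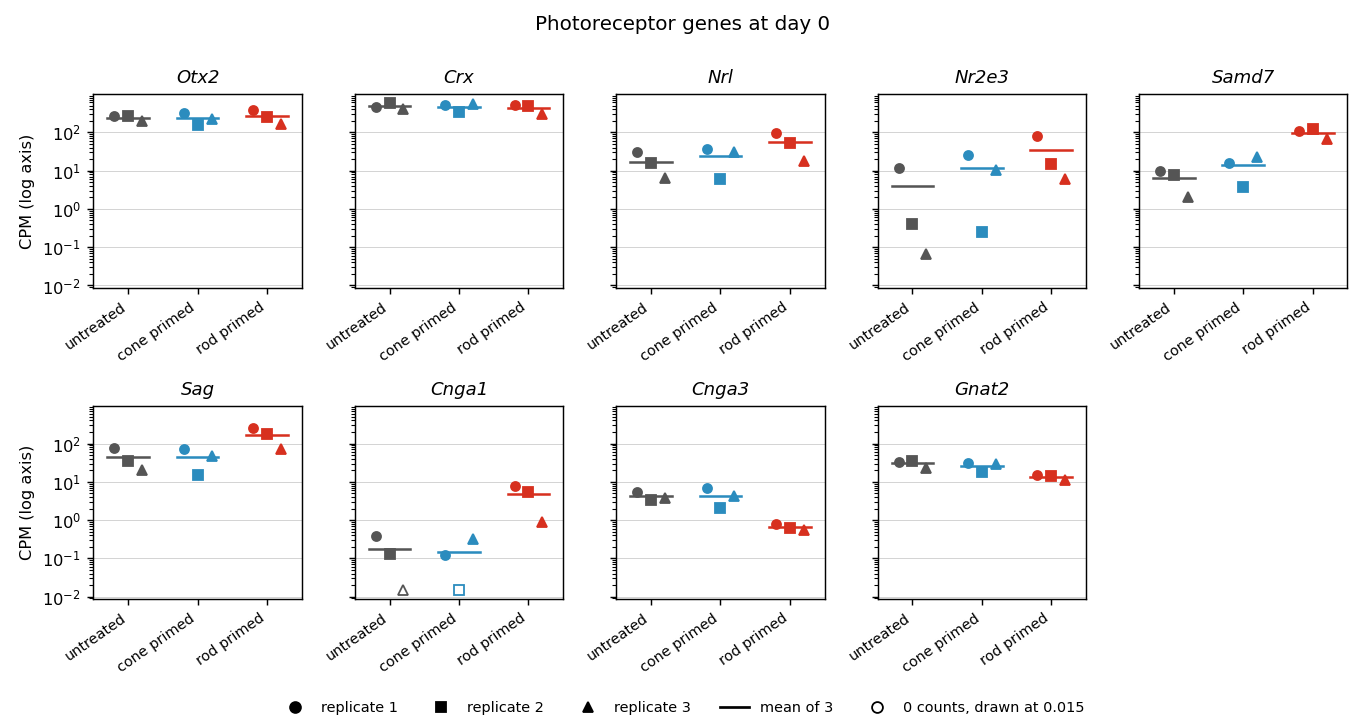
CPM on a log axis for 9 photoreceptor genes in the 3 untreated, 3 cone primed and 3 rod primed libraries, with 1 symbol per replicate and a line at the mean of 3 (open symbols are 0 counts). Nrl and Nr2e3 differ more between replicates than most, Samd7 is higher in every rod primed library, and Cnga3 and Gnat2 are lower in every rod primed library.

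**Figure D5:**
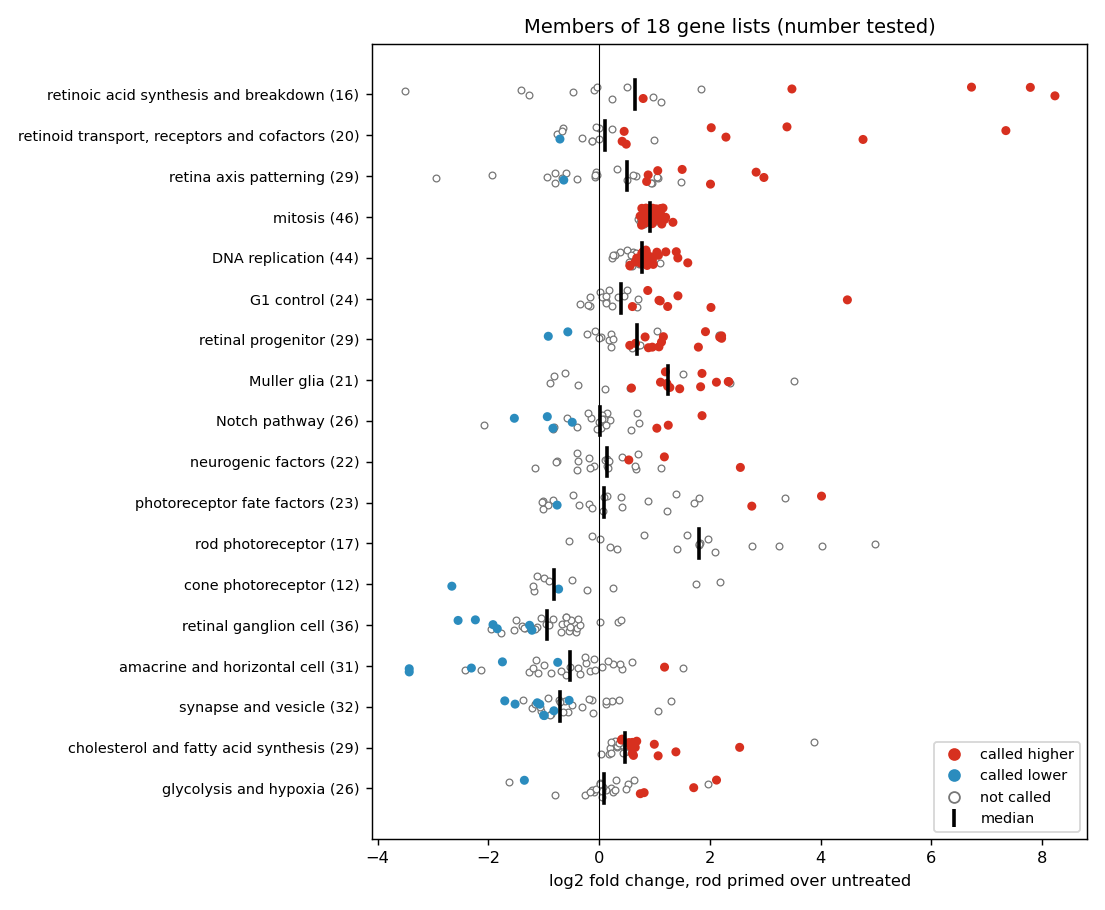
Log2 fold change of rod primed over untreated cells for every tested member of 18 gene lists, with the number tested in parentheses, called genes filled and a bar at each median. Mitosis genes lie in a narrow band between 0.70 and 1.33, retinal ganglion cell genes lie mostly below 0, and rod photoreceptor genes have a median of 1.80 with none called.

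Signalling pathways were followed from lists of ligands, receptors and targets. In the BMP list 5 of 23 tested genes were called higher and 0 lower, against 6.71% and 3.56% of all genes. Atoh8, a bHLH factor induced by BMP in other tissues, went from 1.02, 0.867 and 0.475 CPM to 47.1, 57.5 and 65.6 CPM (log2 fold change 6.22 ± 0.36, adjusted p 2.52e-12). The groups were far apart. Smad6, an inhibitor of the BMP response, had 2 counts over the 3 untreated libraries and 2.58, 1.31 and 4.76 CPM in rod primed ones, a ratio of 37.4 with a 95% counting interval of 12.4 to 185. Smad9 (2.71 ± 0.54), Id1 (1.66 ± 0.36) and the receptor gene Bmpr1a (0.47 ± 0.11) rose less. Id1 was not called without rod primed replicate 3 (adjusted p 0.121). In the TGF-beta list 5 of 25 were called higher, and 3 without rod primed replicate 3 or untreated replicate 2. Both the 5 and the 25 include Ccna2 (log2 fold change 0.99), a cyclin that is also in the mitosis list and not a gene of this pathway. Of the other called genes, Smad3, a signal transducer, rose from 28.5, 22.8 and 27.6 CPM to 48.8, 59.4 and 72.5 CPM. Ltbp1, which holds latent TGF-beta in the matrix, rose from 10.7, 7.54 and 9.24 CPM to 17.1, 23.5 and 38.9 CPM. Skil, a feedback inhibitor, rose by 0.88 ± 0.13 on the log2 scale.

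Wnt genes gave 4 higher and 1 lower of 34, and 5 and 4 of 25 in the fit of the 6 libraries alone. Fzd1, a receptor, rose (1.18 ± 0.26), while Lef1, a transcription factor and target of the pathway, fell from 42.9, 36.1 and 25.1 CPM to 15.1, 8.77 and 9.88 CPM (-1.63 ± 0.40). Lef1 was not called without rod primed replicate 3 (adjusted p 0.0563), where 1 Wnt gene was called higher, and 2 were without untreated replicate 2. In the Hedgehog list 2 of 13 were called. Cdon, a coreceptor, rose from 97.9, 83.6 and 96.3 CPM to 256, 239.9 and 324 CPM (1.56 ± 0.16), and Smo, the signal transducer, rose by 0.58 ± 0.15 on the log2 scale and was not called without rod primed replicate 3 (0.0643) or untreated replicate 2 (0.0614). Ptch1 and Gli1, targets of the pathway named after their values were seen, had overlapping groups and log2 fold changes of 0.18 ± 0.16 and 0.95 ± 0.81. Of 21 FGF genes 5 were called higher and 1, Fgf18, lower (-2.36 ± 0.74). Fgf1, a ligand, had 0, 0.133 and 0.136 CPM in untreated and 4.20, 1.41 and 10.9 CPM in rod primed libraries. Etv1, a target, went from 35.9, 27.6 and 28.3 CPM to 64.2, 60.2 and 75.1 CPM, and the feedback inhibitors Spred2 (0.92 ± 0.17) and Spry1 (0.99 ± 0.24) rose too. Spry1 was not called without untreated replicate 2 (0.0507), where 3 FGF genes were called higher, and Fgf18 was lost without any 1 of the 6 libraries (adjusted p 0.0518 to 0.133).

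The other agent, taurine, was followed through its transport, synthesis and receptors. Of 26 tested genes 1 was called higher and 2 lower, and 2 and 7 of 21 in the fit of the 6 libraries alone. Slc6a6, the taurine transporter, had 191, 329 and 259.8 CPM in untreated and 122, 116 and 160.2 CPM in rod primed libraries, a log2 fold change of -0.97 ± 0.22 (adjusted p 0.00468). Every rod primed library was lower than every untreated one, and the call was lost without untreated replicate 2 (0.0678), the highest of the 6. In cone primed cells Slc6a6 had 201, 217 and 273 CPM. Glra2, a glycine receptor subunit, fell from 8.95, 10.5 and 6.99 CPM to 3.53, 1.91 and 1.44 CPM, but was not called when any 1 library was left out (adjusted p 0.0502 to 0.202). Slc12a2, the chloride importer that makes these receptors excitatory in young neurons, rose from 49.5, 45.1 and 45.2 CPM to 69.9, 79.4 and 83.9 CPM (0.74 ± 0.14).

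Metabolic genes changed in parts. Of 29 genes of cholesterol and fatty acid synthesis and uptake, 29 had a log2 fold change above 0, 14 were called higher and 0 lower, and the median was 0.47. Scd1, a fatty acid desaturase, had 12.3, 8.34 and 6.32 CPM in untreated and 39.9, 59.9 and 53.1 CPM in rod primed libraries (2.54 ± 0.35). Insig1, a sterol sensor, had 49.0, 67.8 and 56.9 CPM and 98.3, 126 and 122 CPM (0.99 ± 0.12). Both are known targets of the sterol-regulated factors and were separated between the groups. Of 26 glycolysis and hypoxia genes 4 were called higher and 1 lower, and 5 and 3 of 23 in the fit of the 6 libraries alone. Eno1, a glycolytic enzyme, had 193, 184 and 172 CPM and 839, 657 and 888 CPM (2.12 ± 0.19), and Slc2a1, the main glucose transporter, 111, 100.2 and 124 CPM and 341, 353 and 399.5 CPM (1.71 ± 0.20). Hk1, the first enzyme of the pathway, rose by 0.81 ± 0.17 on the log2 scale. Slc2a3, the neuronal glucose transporter, had -1.35 ± 0.38, and was not called without rod primed replicate 1 (adjusted p 0.0629) or 3 (0.114) or untreated replicate 2 (0.154). Eno1 counts can include reads of near-identical processed copies, so its level is uncertain.

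The largest changes outside these groups came by the naming rule. Pdlim3, a muscle-type adaptor protein of the actin cytoskeleton, had 0.256, 0.400 and 0.475 CPM in untreated and 54.0, 51.1 and 56.5 CPM in rod primed libraries (log2 fold change 7.04 ± 0.54, adjusted p 1.11e-09). Slc13a5, a citrate transporter, went from 0.256, 0.267 and 0.204 CPM to 11.9, 7.86 and 10.3 CPM (5.32 ± 0.58), and Hkdc1, a hexokinase family member, from 1.79, 1.20 and 1.29 CPM to 80.7, 42.5 and 31.9 CPM (5.21 ± 0.45). Adamts3, a matrix protease, had 1.41, 0.867 and 0.951 CPM and 22.8, 20.1 and 8.98 CPM. These 4 genes were near the floor in untreated cells and separated in every library. Col18a1, a basement membrane collagen, had 6.01, 4.47 and 2.92 CPM and 43.4, 32.8 and 102 CPM, and Postn, a matrix protein of mesenchyme, had 1.15, 0.934 and 0.679 CPM and 16.5, 10.9 and 92.3 CPM and was not called by limma voom (adjusted p 0.106). For both, rod primed replicate 3 was by far the highest library. Csn3, a milk casein, had 1 count over the untreated libraries and 20.2, 18.4 and 29.8 CPM in rod primed ones, a ratio of 876 with a 95% counting interval of 157 to 34670.2. Among the lower genes, Edaradd, an adaptor of ectodysplasin signalling, went from 12.3, 16.3 and 23.6 CPM to 0.678, 1.71 and 2.78 CPM (-3.28 ± 0.45). Ryr1, a calcium release channel, went from 9.98, 8.14 and 13.2 CPM to 1.63, 1.11 and 0.988 CPM (-3.09 ± 0.52), and Gpr26, an orphan receptor of neurons, had -2.65 ± 0.51. Among the most abundant called genes, Ckb, the brain creatine kinase, rose from 699, 639.8 and 638 CPM to 1910.0, 1824 and 1674 CPM (1.45 ± 0.21).

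Marker lists of cells from outside the neural retina were checked beside these results. Lens genes had 0 of 8 tested called and summed to 1.00 to 2.17 CPM in untreated and 2.12 to 2.87 CPM in rod primed libraries, with 12 of 22 listed at 0 in all 6. Microglia and macrophage genes had 1 of 20 called and summed to 6.20 to 8.95 CPM and 10.9 to 21.4 CPM. Endothelium and pericyte genes had 0 of 14 called, with sums of 323 to 378 CPM and 302 to 313 CPM, and erythroid genes had 0 of 1 called, with sums of 0.128 to 1.09 CPM and 0.407 to 1.11 CPM. Retinal pigment epithelium genes had 1 higher and 1 lower of 6, the lower being Mitf, the pigment cell factor (-1.38 ± 0.28), while the sums were 156 to 227 CPM and 256 to 324 CPM. Mesenchyme and matrix genes had 4 higher and 2 lower of 29, and summed to 284 to 371 CPM in untreated and 332 to 633 CPM in rod primed libraries. Foxc1, a factor of the mesenchyme around the eye, had 2.30, 0.467 and 2.24 CPM and 9.09, 5.34 and 14.3 CPM (2.59 ± 0.47). The highest Foxc1, Postn and Col18a1 values lay in rod primed replicate 3, and the part of such cells in the other results was not tested. Without that library, and likewise without untreated replicate 2, 2 mesenchyme genes were called higher, and 1 was lower without each single library. The higher pigment epithelium gene, Trpm3, was not called without rod primed replicate 2 or 3 or untreated replicate 1 or 2 (adjusted p 0.0680 to 0.218).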

How the data were processed

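Total RNA was sequenced from low-input libraries. Per the file headers and values, the deposited tables hold unnormalised read counts for 47729 genes and, separately, TPM. HISAT2, HTSeq, StringTie and GRCm38 are named in the submitters' processing notes, without versions. The mitochondrial gene mt-Nd6, encoded on the opposite strand to the other 12 mitochondrial protein genes, held 0.822% to 2.22% of their deposited counts but 73.0% to 85.1% of their deposited TPM, so the 2 tables read opposite strands and the analysis used counts alone. Reads were counted without molecular identifiers, so floors and intervals cover counting error only.

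All 33 libraries entered 1 edgeR quasi-likelihood model (edgeR 4.0.16, R 4.3.3) of 11 groups, with TMM scaling and filterByExpr at a minimum count of 10, which kept 18150 of 32488 genes with any count. CPM values are linear, and log2 fold changes come from the model with standard errors. The common biological coefficient of variation was 0.213. A floor of 3 counts over a group was 0.0799 CPM in untreated and 0.105 CPM in rod primed cells. Alternatives used DESeq2 1.42.0, limma 3.58.1 and other settings given at the end. The code was checked on simulated counts. Levels, promoter searches and figures used Python 3.11.15 with pandas 2.3.3.

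The 41 gene lists held 1053 genes, of which 1051 were matched and 912 tested. Members, lists and tests were chosen with earlier results of these data known, and a list is described by its counts and median, with no test of its own. Genes named are the 8 smallest p-values of each list (every member of the retinoid and photoreceptor fate lists), the 15 largest rises and falls among called genes without overlap and whose mean log2 CPM reached 1, passing over Gm and Rik symbols, and the 10 called genes of highest level. The text gives a selection of these, and some genes are not reported here.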

Additional observations from a re-analysis of the deposited data

How the results depend on the processing

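The count of 1864 called genes (1217 higher, 647 lower) differed between settings. It was 3768 with limma voom and sample quality weights (2021 higher, 1747 lower), 2963 with the 9 day 0 libraries (1504 lower) and 2912 with the 6 compared libraries (1375 lower). Leaving out 1 of the 6 libraries gave 829 to 1619 called genes, 561 to 1136 higher and 249 to 483 lower. The share of called genes that were higher was 65.3%, and lay between 49.2% with the 9 day 0 libraries and 75.3% without untreated replicate 3. Other scalings, filters, a robust dispersion and DESeq2 gave 1574 to 2397 called genes, and no alternative called a gene between cone primed and untreated cells. The main fit did not pair libraries by replicate number, and whether the numbers pair them was not settled. Same-numbered libraries had deviations that correlated at 0.0887, 0.0588 and 0.169. Each rod primed library correlated best with its own number, but untreated replicate 2 did so with rod primed replicate 1 (0.0716). The second principal component also ordered the replicate numbers alike in both groups. With the replicate block, 1978 genes were called in the 33 libraries and 3596 (1842 higher, 1754 lower) in the 6, where 8 rod genes were called higher, and 6 photoreceptor fate factors higher and 7 lower. Of 127 called genes named, 86 stayed called in every alternative run, 41 were lost in at least 1 and 0 changed direction. Beside the losses given above, Rara (adjusted p 0.0505, scaling without ribosomal RNA and mitochondrial genes), Hoxb5 (0.0528) and Hoxb8 (0.0610, both with a robust dispersion) were lost in 1 alternative that kept all libraries, as were Fgf18 (0.0509) and Trpm3 (0.0606) with no filter on low counts. Otx1 was lost with limma voom (0.106), the 9 day 0 libraries (0.0624) and the replicate block (0.0502), and Ccdc136 with 5 settings that kept the 6 libraries (0.0529 with a robust dispersion to 0.136 with the 9 day 0 libraries). Gbx2 was lost with limma voom (0.223) and the 9 day 0 libraries (0.0835). The uncalled Tbx5 had 0.11 with limma voom and -0.57 to 0.48 without 1 library. Without 1 library the uncalled log2 fold change of Crx ran from -0.27 to 0.085 and that of Otx2 from -0.18 to 0.38, so both changed sign (Crx without rod primed replicate 3 or untreated replicate 2, Otx2 without rod primed replicate 1). The alternatives on deposited TPM were not run, because those values come from the opposite strand. Of the Hox genes, 24 had 0 counts in all 6 libraries, and whether depth or absent expression underlies this was not tested.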

Other observations

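Genes of immune signalling, not among the comparisons above, held a few clear rises. Oasl2, an interferon-induced gene, had 0.128, 0.467 and 0.136 CPM in untreated and 4.07, 4.13 and 6.02 CPM in rod primed libraries (log2 fold change 4.13 ± 0.51, adjusted p by edgeR 3.79e-06, n = 3 per group), and B2m, the light chain of class I histocompatibility antigens, had 4.61, 4.40 and 5.30 CPM and 16.3, 14.5 and 16.4 CPM (1.72 ± 0.23). They were 2 of 4 genes called higher among 24 of interferon response and antigen presentation, with 0 lower, and 3 to 6 were called without 1 library. Tnfrsf1b, a receptor for tumour necrosis factor, had 0 counts in each untreated library and 14.5, 7.46 and 24.9 CPM in rod primed cells, at least 202-fold higher against a floor of 3 counts over the group. Among 22 tested genes of NF-kB and tumour necrosis factor signalling 2 were called higher and 1 lower. Without 1 library 1 to 3 were higher, and 1 where rod primed replicate 3 or untreated replicate 2 or 3 was left out. Of 20 p53 target genes 3 were called higher (1 without untreated replicate 2), and of 30 stress response genes 1 was (4 of 25 in the fit of the 6 libraries alone).

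In a list of neural crest and Gata, Pax and Pou factors, 5 genes were called higher and 1 lower of 23 tested, against 6.71% and 3.56% of all genes, with a median log2 fold change of 0.23. En2, a midbrain and hindbrain factor also seen in retina, had 2.56, 2.60 and 2.44 CPM in untreated and 18.4, 16.8 and 12.1 CPM in rod primed libraries (2.63 ± 0.41). Gata2 had 0.256, 0 and 0.407 CPM and 2.31, 2.12 and 7.18 CPM (4.14 ± 0.71), and Pou3f2, a POU factor of neural progenitors, 12.3, 11.4 and 13.5 CPM and 32.3, 32.3 and 39.1 CPM (1.48 ± 0.29). Pou3f4 rose by 3.35 ± 0.70 on the log2 scale. The other higher gene was Sox6 (1.16 ± 0.26). The lower one, Gbx2 (-2.06 ± 0.62), was called without untreated replicate 3 and lost without any 1 of the other libraries.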
